A study of Homo sapiens with 6 samples.

Results

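The calponins CNN1, CNN2 and CNN3 and the transgelins TAGLN, TAGLN2 and TAGLN3 are actin-binding proteins of 1 family, and CNN3 was the gene silenced in this experiment. The 6 genes were taken by name from a table of 48162 Ensembl genes, with names from GENCODE release 29 (GRCh38), and all 6 had a row. The comparison asked whether the transcripts of the other family members rose when CNN3 was knocked down.

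SiHa cells, an established human cervical cancer line bought from ATCC, received si-CNN3#1, a small interfering RNA (siRNA) that targets CNN3 (n = 3), or the control siRNA si-NC (n = 3). The transfection medium was exchanged for fresh medium at 24 h according to the labels (the study's methods give an earlier time for siRNA), and RNA was collected with Trizol at 48 h. RNA was sequenced on an Illumina instrument, and reads were counted per gene. As labelled, the groups differ by the siRNA alone, with 1 siRNA against the target, 1 time point, 1 cell line, and mRNA as the only readout.

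Calponins bind actin filaments through an amino-terminal calponin-homology (CH) domain and carry short calponin repeats behind it, and in smooth muscle they restrain the actomyosin ATPase. CNN1 is the smooth muscle calponin, CNN2 is found in many cell types including epithelial cells, and CNN3 is the acidic calponin found in non-muscle cells and brain. The transgelins are shorter, with a CH domain and a stretch related to a calponin repeat. TAGLN (SM22) is a smooth muscle marker under the control of serum response factor, TAGLN2 is widely expressed, and TAGLN3 is chiefly neuronal.

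In the coding sequences of GENCODE 29 the 3 calponins encoded 297 to 329 residues in 7 exons, and the 3 transgelins encoded 199 to 201 in 5 exons. The translated CNN3 was identical to CNN1 at 70.1% and to CNN2 at 66.9% of aligned residues. Its identity to TAGLN2, TAGLN and TAGLN3 was 45.5%, 45.7% and 48.9%. Within the transgelins the identity was 65.3% to 69.8%. CNN3 is therefore about as close to the other calponins as the transgelins are to each other.

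The siRNA strands are shown because the paralogs share much of the targeted stretch. In the sense strands below the last 2 bases are the overhang, and in the guide strands, derived as the reverse complement of the 19 paired bases, capitals mark the seed (bases 2 to 8).
si-CNN3#1 sense: gcagaugggaaccaacaaatt
si-CNN3#1 guide: uUUGUUGGuucccaucugc
si-NC sense: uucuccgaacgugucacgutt
si-NC guide: aCGUGACAcguucggagaa

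The 19 paired bases of si-CNN3#1 occurred without a mismatch in 6 of 206694 transcripts of GENCODE 29, all from CNN3, and those of si-NC occurred in 0. CNN3 has 7 annotated transcripts, so 1 of them lacks the site. In CNN3-201 the site spans the junction of exons 5 and 6 in the coding sequence. Where the proteins align, each paralog carries a related stretch, also in coding sequence, and capitals mark the bases that differ from the siRNA.
CNN3 (target): gcagatgggaaccaacaaa
CNN2: gcagatgggCaccaacaaa
CNN1: gcagatgggCaccaacaaG
TAGLN3: gcagatgggCaGcaacaaG
TAGLN: TcagatgggCaGcaacaGa
TAGLN2: AcagatgggCaccaacCGC

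The target bases lie on the minus strand of GRCh38 at chr1:94901669-94901672 and chr1:94899503-94899517. The CNN2 stretch crosses the same exon junction on the plus strand, at chr19:1036243-1036246 and chr19:1036416-1036430. It was present in 6 of the 10 protein-coding CNN2 transcripts. The CNN1 stretch lies at chr19:11547904-11547907 and chr19:11549323-11549337 on the plus strand. The transgelin stretches lie within exon 5, at chr3:112013479-112013497 on the plus strand (TAGLN3), chr11:117204284-117204302 on the plus strand (TAGLN) and chr1:159918854-159918872 on the minus strand (TAGLN2).

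CNN2 differed from the siRNA at 1 base of 19, A10C, with positions counted from 1 at the 5′ end of the sense strand. The same A10C difference was present in all 5 paralogs, and position 10 of the sense strand pairs with position 10 of the guide. CNN1 had A19G beside it. TAGLN3 differed at 3 bases (A10C, C12G and A19G), TAGLN at 4 (G1T, A10C, C12G and A18G) and TAGLN2 at 5 (G1A, A10C, A17C, A18G and A19C). The target lies in the repeat region, and similar windows recurred downstream. In CNN3 itself they stood 120 and 237 bases further on, with 16 and 17 matching bases, and in CNN1 at the same distances with 18 and 16. The CNN1 window with 18 matching bases was identical to the CNN2 stretch.

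A 7-base match to the guide's seed, CCAACAA on the mRNA strand, was searched in 1 transcript per member. It occurred 2 times in CNN3-201, 2 times in CNN1-201 and 1 time each in CNN2-201 and TAGLN-201, always in coding sequence, and in neither TAGLN2-201 nor TAGLN3-201. No member's 3′ UTR held it. The seed match of si-NC occurred in none of the 6 transcripts. These matches describe the letters only.

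**Figure D1:**
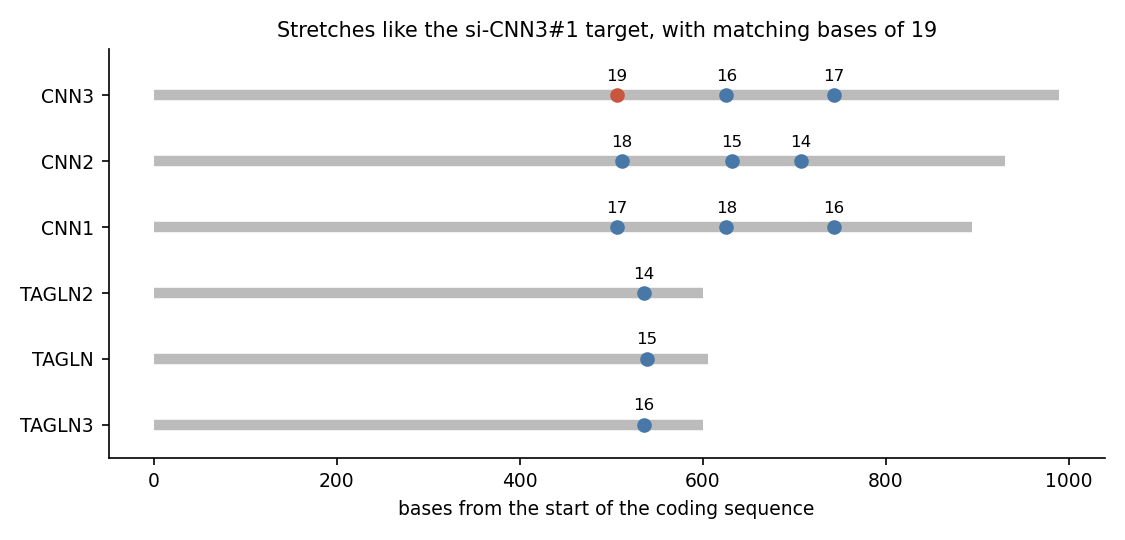
Stretches with at least 14 of 19 bases equal to the si-CNN3#1 target, by distance in bases from the start of the coding sequence, with 1 bar for each member's coding sequence. The number above each point is the count of matching bases, and the filled red point is the CNN3 site with 19; the calponins hold 3 such stretches each and the transgelins 1 each.

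The total counts on genes were 18147028 to 19026341 in the si-CNN3#1 samples and 20287139 to 24976517 in the si-NC samples, so each si-CNN3#1 sample was shallower than each si-NC sample. In pairs of replicates the counts varied beyond sampling noise (chi-square over its degrees of freedom, 1.56 to 1.98). This value cannot tell separate cultures from repeat libraries of the same RNA. The samples were treated as separate replicates, as labelled. Of 8 epithelial markers, 7 had a mean FPKM (counts scaled to gene length and to the sample's total) of at least 1, among them KRT7 at 787 to 862. The means of the 6 smooth muscle markers and of the 4 neuronal markers all stayed under 1. The neuronal marker SNAP25 reached 1.21 FPKM in its highest sample. Of the 4 leukocyte markers, 2 had a mean FPKM of at least 1, CD14 at 110 to 140 and CD3E at 0.773 to 1.28. PTPRC did not exceed 0.387 and CD79A did not exceed 0.315. The summed leukocyte level was 131 to 142 FPKM with si-NC and 111 to 117 with si-CNN3#1. Of the 6 fibroblast markers, 3 had a mean FPKM of at least 1, and the 6 summed to 8.57 to 9.49 FPKM over all samples. The 3 endothelial markers with a row summed to at most 0.42 FPKM. The part of these levels in the results was not tested.

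Levels were compared between genes in FPKM, which divides by gene length. In the si-NC samples TAGLN2 was the most abundant member, followed by CNN2, CNN3 and TAGLN. TAGLN2 had 323, 324 and 325 FPKM in replicates 1, 2 and 3, CNN2 had 168, 162 and 165, CNN3 had 48, 44.3 and 48.8, and TAGLN had 3.33, 3.98 and 4.31. These ranges do not overlap. Among 28022 genes with an FPKM above 0 in si-NC, TAGLN2 ranked 306, CNN2 763, CNN3 3411 and TAGLN 10822. The silenced calponin was thus the less abundant of the 2 calponins found at a measurable level, and made up 22.2% ± 0.679 (SD, n = 3) of the summed calponin FPKM.

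CNN1 and TAGLN3, the smooth muscle and neuronal members, were not detectable at this depth. CNN1 had 1, 0 and 0 counts in si-NC and 0, 0 and 2 counts in si-CNN3#1. TAGLN3 had 0 counts in all 6 samples, and a count of 0 over a group allows up to 0.0448 CPM (counts scaled to a common total) in si-NC and 0.0535 in si-CNN3#1, at 3 counts over the group's summed total and for counting error only. The order of these 2 members cannot be told from such counts. The number of reads also gives no test of a change, and neither passed the filter on low counts.

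CNN3 (ENSG00000117519, chr1:94896949-94927278) was the targeted gene and fell to 50.9% of its control level. It had 1134, 1288 and 1234 counts in si-NC replicates 1, 2 and 3 and 490, 514 and 574 counts in si-CNN3#1. Normalized by edgeR's TMM method, these were 56.5, 51.7 and 57.2 CPM against 26, 26.8 and 31.4 CPM. The groups did not overlap, with replicate 3 the highest of the si-CNN3#1 samples. The log2 fold change was -0.97 (SE 0.06, 95% interval -1.08 to -0.86, adjusted p = 2.04e-20, quasi-likelihood test of edgeR), and the interval as a percentage of the control was 47.2% to 55%. By p-value CNN3 ranked 5 of the 15860 genes tested. Fewer cells with the transcript and less transcript per cell cannot be told apart in such bulk RNA.

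CNN2 (ENSG00000064666, chr19:1026581-1039068), the calponin with the same stretch but for 1 base, did not pass the test in either direction. It had 225, 216 and 220 CPM in si-NC replicates 1, 2 and 3 and 243.5, 220.5 and 222.4 CPM in si-CNN3#1. Replicate 1 of si-CNN3#1 was the highest sample, and the other si-CNN3#1 samples lay inside the si-NC range. The log2 fold change was 0.05 (SE 0.03, 95% interval -0.0063 to 0.12, adjusted p = 0.263 with edgeR), that is 103.9% of the control with an interval of 99.6% to 108.4%. The exact two-sided permutation test gave p = 0.4. Without si-CNN3#1 replicate 1 the log2 fold change was 0.0071.

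TAGLN2 (ENSG00000158710, chr1:159918107-159925732), which carried 5 differences in the stretch and no seed match, did not pass the test either. It had 376.8, 375.1 and 377.9 CPM in si-NC and 367.9, 361.8 and 374 CPM in si-CNN3#1. The groups did not overlap in TMM-normalized CPM, by a margin that the deposited FPKM did not keep: 323, 324 and 325 against 318, 316 and 326. The log2 fold change was -0.03 (SE 0.03, 95% interval -0.085 to 0.018, adjusted p = 0.454 with edgeR), or 97.7% of the control with an interval of 94.3% to 101.2%. The exact two-sided permutation test on CPM gave p = 0.1, the lowest value available with 3 samples a group.

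TAGLN (ENSG00000149591, chr11:117199321-117204782) was the member with the widest interval, at about 100 counts per sample. It had 93, 137 and 129 counts in si-NC and 127, 132 and 98 counts in si-CNN3#1, which were 4.64, 5.5 and 5.98 CPM against 6.74, 6.87 and 5.37 CPM. si-CNN3#1 replicates 1 and 2 lay above every si-NC sample, and replicate 3 lay within the si-NC range. The log2 fold change was 0.23 (SE 0.12, 95% interval -0.015 to 0.48, adjusted p = 0.237 with edgeR), and the exact two-sided permutation test gave p = 0.3. As a percentage of the control this is 117.5%, with an interval of 99% to 139.5%.

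**Figure D2:**
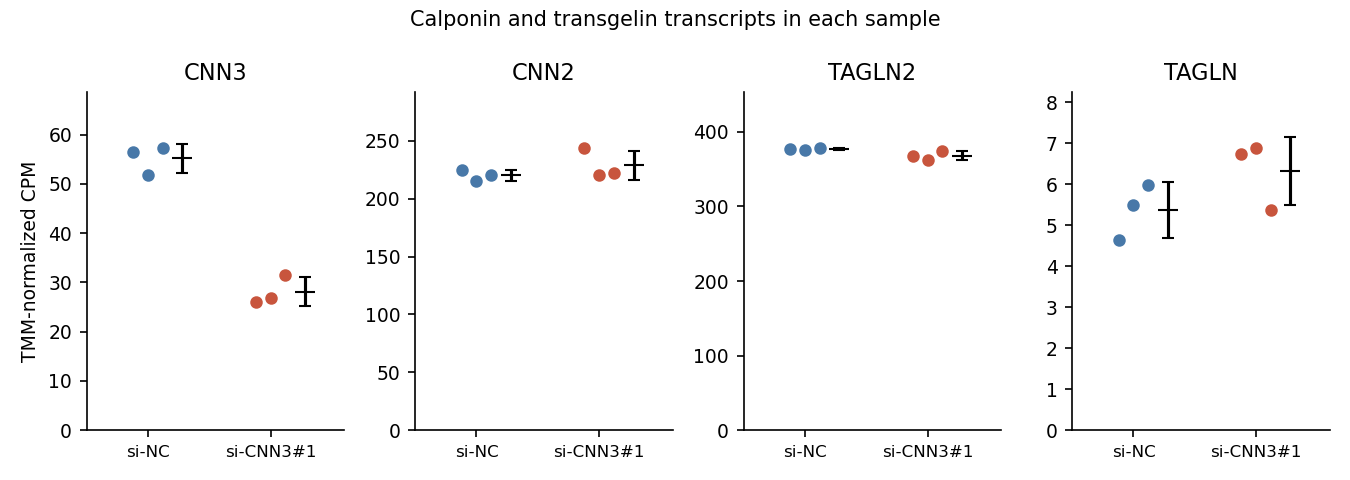
TMM-normalized CPM of the 4 tested members in each sample, with a linear axis from 0 in each panel; blue points are the 3 si-NC samples, red points the 3 si-CNN3#1 samples, ordered by replicate, and black bars are the mean ± SD. CNN3 separates widely (51.7 to 57.2 against 26 to 31.4 CPM). TAGLN2 separates by a narrow margin (375.1 to 377.9 against 361.8 to 374 CPM), and CNN2 and TAGLN overlap between the groups.

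Of the 4 members tested, CNN3 alone had an adjusted p of 0.05 or less, and it was lower. Over all 15860 tested genes 13.3% were called, 6.17% higher and 7.14% lower with si-CNN3#1, and 46.3% of the calls were higher. Scaling by total counts alone put 60% of the calls on the higher side, and the direction of the 4 members was the same under it. In TMM-normalized CPM, CNN3 and TAGLN2 had groups that did not overlap, as did 28.2% of all tested genes. The median log2 fold change over all genes was 0.0023.

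**Figure D3:**
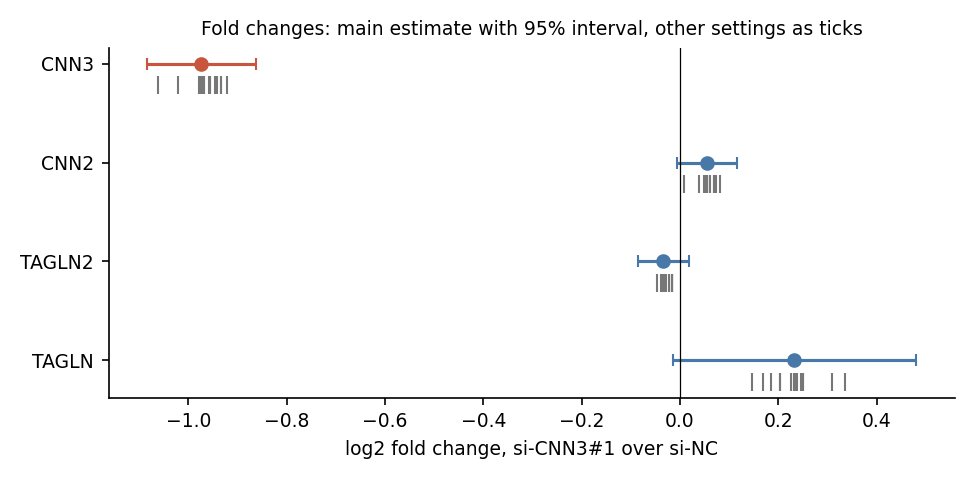
Log2 fold change of si-CNN3#1 over si-NC for the 4 tested members, with points and bars for the main estimate and its 95% interval (red where called) and grey ticks for 18 other settings. The CNN3 ticks run from -1.06 to -0.92, and the ticks of CNN2 (0.0071 to 0.0806), TAGLN2 (-0.0465 to -0.0164) and TAGLN (0.146 to 0.335) each stay on 1 side of 0.

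In mean FPKM the differences of the other members did not add up to the loss of CNN3. CNN3 fell by 22.8 FPKM, from 47 ± 2.39 to 24.2 ± 2.59 (SD, n = 3). CNN2 was 8.34 FPKM higher (165 ± 2.95 against 173 ± 8.71), TAGLN was 0.74 higher (3.87 ± 0.499 against 4.61 ± 0.605) and TAGLN2 differed by -3.65 (324 ± 1 against 320 ± 5.09). None of these 3 differences passed the test above. The summed calponin FPKM was 216, 206 and 214 in si-NC and 206, 191 and 196 in si-CNN3#1, so that the highest si-CNN3#1 sample lay just under the lowest si-NC sample. In TMM-normalized CPM the sums overlapped, at 282, 267 and 278 against 270, 247 and 254. The sum stood at 93.2% of the control for the calponins, 99.1% for the transgelins and 96.8% for all 6 genes.

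The make-up of the family changed through CNN3. Its share of the summed family FPKM was 8.86%, 8.29% and 8.98% in si-NC and 4.21%, 4.53% and 5.17% in si-CNN3#1, and its share of the calponins went from 22.2% ± 0.679 to 12.3% ± 1.52 (SD, n = 3). CNN2 accounted for 77.8% of the calponin FPKM in si-NC and 87.7% in si-CNN3#1. The ratio of CNN2 to CNN3 in FPKM was 3.5, 3.66 and 3.38 in si-NC and 8.23, 7.23 and 6.21 in si-CNN3#1. The groups did not overlap (p = 0.1 by the exact permutation test, the lowest value available with 3 samples a group). Since CNN3 was the silenced gene and its own groups were apart, this ratio is no separate evidence on CNN2. The ratio of CNN3 to CNN2 counts, which needs no scaling between samples, was 0.251, 0.24 and 0.26 against 0.107, 0.121 and 0.141, or 49.2% of the control in the means.

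**Figure D4:**
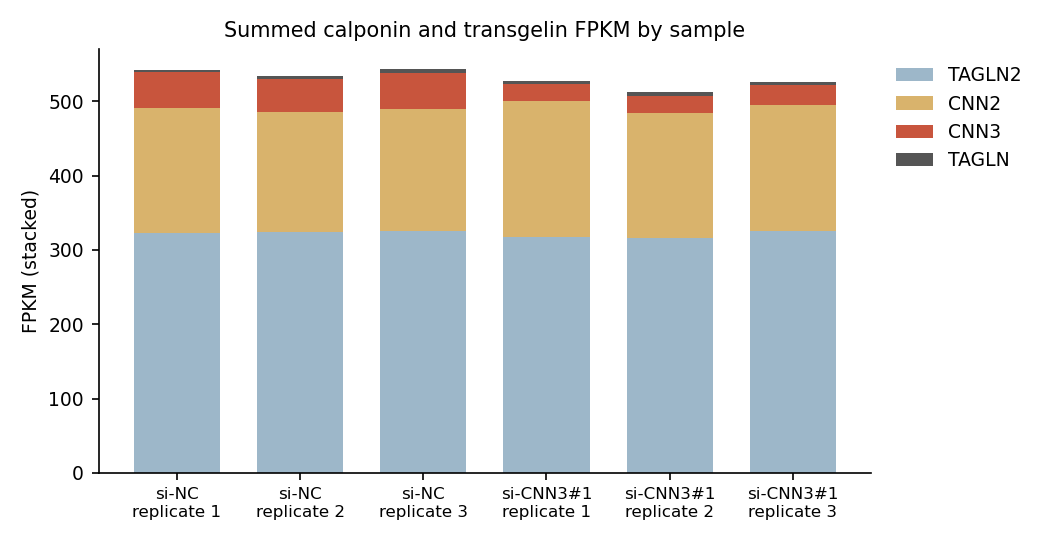
FPKM of TAGLN2, CNN2, CNN3 and TAGLN stacked for each sample (CNN1 and TAGLN3 are at or near 0). The bars reach 534 to 543 FPKM in the si-NC samples and 513 to 529 in the si-CNN3#1 samples, and the red CNN3 layer goes from 44.3 to 48.8 FPKM down to 22.3 to 27.2.

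Few reads were counted on copies of the members. GENCODE 29 lists 13 pseudogenes of members, all with a row in the table: 11 of CNN2, CNN3P1 and TAGLN2P1. CNN2P1 and CNN2P9 were the CNN2 pseudogenes with any count, and summed to 0.105% to 0.222% of the CNN2 counts in each sample. CNN3P1 had 0 counts, and TAGLN2P1 had at most 1 per sample. How reads with several matches were handled is not given in the sources used here. PCSK7, a proprotein convertase gene on the other strand, overlaps TAGLN by 446 bases. It had 2105 to 2774 counts per sample and a log2 fold change of -0.02 (adjusted p = 0.797), and since the strand setting is not given, reads in that overlap cannot be assigned. AC011558.1 overlaps CNN2 by 338 bases on the other strand and has no row in the table.

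Few tested genes outside the family held a stretch close to the target. With 1 mismatch GENCODE 29 held 5 genes (CNN2, CNN1, CNN2P1, CNN2P9 and AC126773.3), of which CNN2 alone passed the filter. With 2 mismatches it held 6 genes, of which IRAK3, an inhibitor of interleukin-1 receptor signalling, alone was tested. IRAK3 was lower with si-CNN3#1, at 59.2 CPM against 66.9 CPM (log2 fold change -0.18, SE 0.04, adjusted p = 0.00332). With 3 mismatches 1 of 14 tested genes was called and was lower, IPO9, a nuclear import receptor (log2 fold change -0.17, adjusted p = 2.65e-05). With 4 mismatches 14 of 177 were called lower and 13 higher, and these 7.91% lower stand beside 7.14% of all genes. IRAK3 and IPO9 were singled out after their values were seen.

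Changes among other proteins with a single CH domain were small. Of 33 such genes, 27 were tested, 5 were called lower and 1 higher, and their median log2 fold change was 0.0057. The lower ones included SMTN, smoothelin of contractile smooth muscle (-0.19, SE 0.04, adjusted p = 0.000522), EHBP1L1, a membrane trafficking protein (-0.22, SE 0.04, adjusted p = 7.36e-05), GAS2L1, which links actin and microtubules (-0.16), and MICALL1, of endosome recycling (-0.12). The fifth was GAS2L3 (-0.2, adjusted p = 0.0124), named after its value was seen. MAPRE1, the microtubule end-binding protein EB1, was higher (0.11, SE 0.03, adjusted p = 0.00129). As a share, 22.2% of the tested genes were called beside 13.3% of all genes.

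Among 25 genes for proteins with CH domains in tandem, 20 were tested and 3 were called, all higher. UTRN, utrophin, had a log2 fold change of 0.13 (adjusted p = 0.00773). SYNE1, which ties the nucleus to actin, was higher at a low level, from 1.51 to 2.57 CPM (0.75, SE 0.2, adjusted p = 0.00764). The abundant members were close to 0, with FLNA at -0.01, ACTN1 at 0.00 and ACTN4 at 0.04. The share called was 15%, beside 13.3% of all tested genes, and without si-NC replicate 3 the count was 1.

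In the contractile apparatus 19 of 25 genes were tested, of which 4 were called higher and 1 lower (median 0.0352). The share called was 26.3%, beside 13.3% of all tested genes. The tropomyosins, which lie along actin filaments with the calponins, were mixed. TPM4 had 786 CPM in si-NC and 856 CPM in si-CNN3#1 (log2 fold change 0.12, SE 0.02, adjusted p = 0.000181), and TPM2 had 231 and 247 CPM (0.1, adjusted p = 0.0105). TPM1 missed the threshold at 25 and 28.2 CPM (0.17, adjusted p = 0.0513), and was called in 6 of 18 other settings. TPM3 was at -0.02 (adjusted p = 0.761). MYH9, the heavy chain of non-muscle myosin IIA, rose (0.12, adjusted p = 0.000455) while MYH10, that of myosin IIB, fell (-0.11, adjusted p = 0.0111).

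MYLK, the kinase of the myosin light chain, was higher at 58.8 against 53.7 CPM (log2 fold change 0.13, adjusted p = 0.0363), and was called in 10 of 18 other settings. None of the actins passed the test: ACTB was at 0.02 with 3775 CPM in si-NC, ACTG1 at -0.03 with 2202 CPM and ACTA2 at 0.02 with 5.57 CPM. CALD1, caldesmon, which like the calponins inhibits actomyosin, was at 0.05 (adjusted p = 0.229). The muscle actins ACTG2, ACTC1 and ACTA1 and the smooth muscle light chain MYL9 had at most 8 counts in any sample and were not tested. Without si-CNN3#1 replicate 3, 3 genes of this list were called.

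Serum response factor drives TAGLN and CNN1 in smooth muscle together with its MRTF cofactors. SRF itself had 66.1 and 71.2 CPM (log2 fold change 0.11, adjusted p = 0.0667), and was called in 3 of 18 other settings. MRTFA was at 0.03 (adjusted p = 0.715) and MRTFB at 0.07 (adjusted p = 0.231), so none of the factors passed in the main fit. Of the 27 genes in the list of factors and targets, 22 were tested, 4 were called higher and 1 lower (median 0.0391). The share called was 22.7%, beside 13.3% of all tested genes. CCN1, a secreted matrix-associated protein, rose from 103 ± 5.23 to 148 ± 6.36 CPM (SD, n = 3; 0.52, SE 0.03, adjusted p = 9.42e-18). CCN2, its relative, rose from 1.31 to 2.37 CPM (0.84, SE 0.22, adjusted p = 0.00584). FHL2, a LIM-domain cofactor, also rose (0.31, adjusted p = 2.35e-05), as did MYH9. JUNB, an AP-1 subunit, fell (-0.21, adjusted p = 2.54e-06).

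Calponins are phosphorylated by protein kinase C and calcium/calmodulin-dependent kinase II, and bind calmodulin. Of 15 such genes 14 were tested, and 1 was called higher and 1 lower (median 0.0163). The share called was 14.3%, beside 13.3% of all tested genes. PRKCD, a protein kinase C isoform, had 15.3 CPM in si-NC and 17.9 CPM in si-CNN3#1 (0.23, SE 0.07, adjusted p = 0.0231). CALM3, 1 of 3 calmodulin genes, had 286 and 267 CPM (-0.1, SE 0.03, adjusted p = 0.00847). No gene of this list was called without si-NC replicate 2, and 1 was called without si-NC replicate 3 or without si-CNN3#1 replicate 1. The lists share genes (MYH9, TPM1, FLNA, ACTB, ACTG1 and ACTA2 among those tested stand in 2 of them), so their counts are not separate. Of the other calls named in the lists, several were lost under some settings: GAS2L3 was called in 12 of 18, MICALL1, MYH10 and PRKCD in 13 of 18, CALM3 in 14 of 18, TPM2 in 15 of 18, GAS2L1 and UTRN in 16 of 18, and SYNE1 and CCN2 in 13 of the 16 that fitted them.

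**Figure D5:**
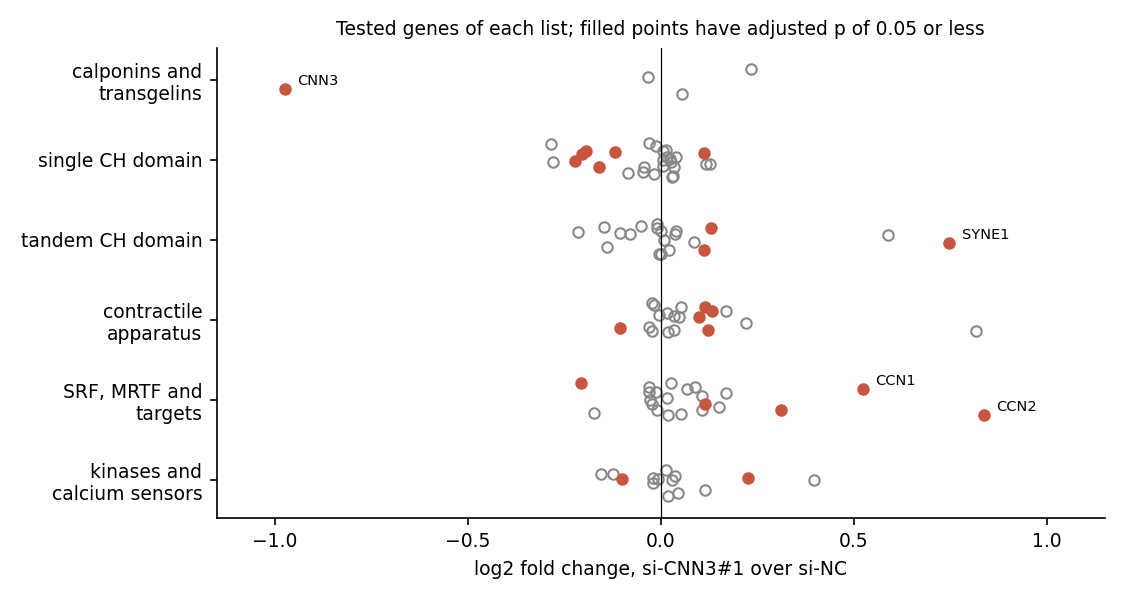
Log2 fold change of si-CNN3#1 over si-NC for the tested genes of the family and of 5 related lists, 1 point per gene with vertical jitter; filled red points have an adjusted p of 0.05 or less. CNN3 at -0.97 has the largest absolute value drawn, followed by CCN2 at 0.84.

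The genes whose normalized level followed a member most closely over the 6 samples were found by Pearson's r of log2 CPM, as a description with no test. For CNN3 these were KCNK2, a potassium channel gene (r = 0.9987), FNDC3A (0.9969) and CDC42, a small GTPase of actin assembly (0.9966), and 231 genes of 9794 had an r above 0.95. All 3 were lower with si-CNN3#1, with log2 fold changes of -0.39, -0.32 and -0.3. This direction follows from how they were picked, since CNN3 itself varied chiefly between the groups. For CNN2 they were DNAJB9, RPL8 and PFDN2 (r of at most 0.9845), for TAGLN2 DHRS1, DDX3X and UFD1 (at most 0.9962) and for TAGLN ZFP62, KCTD20 and ACAD10 (at most 0.9902). None of these 9 genes was called.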

How the data were processed

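RNA of 6 SiHa samples was sequenced, 3 per group, with groups and replicate numbers from the labels. The authors deposited whole-number read counts per Ensembl gene, without normalization, and FPKM computed from them; count divided by total and FPKM returned 1 whole gene length (within 0.01 bases) for 100% of 30502 genes with counts. The submitters' processing notes name TopHat2 2.0.9, Bowtie2 2.0.6, HTSeq and DESeq 1.10.1. The build, annotation and strand setting are not given in the sources used here. Deposited columns of counts and FPKM were all used.

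Counts were tested with edgeR 4.0.16 in R 4.3.3 (TMM, filterByExpr, glmQLFit and glmQLFTest, condition only), with Benjamini-Hochberg adjustment over 15860 genes and a threshold of 0.05; the filter removed 32302 rows. SE is the absolute log2 fold change over the square root of F, and intervals are 95%. The study's methods name DESeq, which was not used here. Alternatives were RLE, upper-quartile and total-count scaling, no filter, at least 10 counts in every sample, thinning to the smallest total, edgeR's exact test, DESeq2 1.42.0, limma 3.58.1 on log2 FPKM with a pseudocount of 1 or 0.1, for genes whose mean FPKM reached 1 (with pseudocount 1 also for all genes), a replicate block, and each sample left out. A fold change with a pseudocount understates the change of low genes. Some of these tests were also run on simulated counts in which every gene had the same variability between replicates. The outcome is not reported here.

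The members and lists were chosen with earlier results of these data known, so no list received a test of its own. Named genes are the 6 members, their copies and overlapping genes, from each list up to 5 called genes with a mean of at least 1 CPM by smallest p-value, a fixed set (actins, tropomyosins, CALD1, MYL9, ACTN1, ACTN4, SRF, MRTFA, MRTFB, MYH9 and FLNA), and the 3 genes most correlated with each tested member at a mean of at least 10 CPM. A gene that this rule names in the tandem CH list is not reported here. The markers are lists for epithelial, smooth muscle, fibroblast, endothelial, leukocyte and neuronal cells. Sites and coordinates come from GENCODE 29 transcripts on GRCh38, and translated coding sequences were aligned with Biopython 1.88.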

Additional observations from a re-analysis of the deposited data

How the results depend on the processing

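The 4 tested members kept their direction and their side of the threshold under all 18 alternatives: CNN3 was called in 18 and CNN2, TAGLN2 and TAGLN in 0, with adjusted p of 0.0943 to 0.931, 0.281 to 0.758 and 0.102 to 0.58. The number of genes called over the whole table was 2111, and 1232 with DESeq2, 1353 and 1363 with limma on log2(FPKM + 0.1) and log2(FPKM + 1), and 585 with limma without the filter. The latter setting tested 30502 genes. These 2 filtered limma fits called 3 and 3 genes of the contractile list and 1 and 1 of the kinase list, and DESeq2 called 1 of the kinase list. Limma without the filter called 2 of the single CH list, 0 of the tandem CH list, 1 of the contractile list, 2 of the serum response factor list and 0 of the kinase list. Leaving out 1 sample gave 1551 to 1747 calls over all genes, 1 to 4 in the tandem CH list, 3 to 6 in the contractile list and 0 to 2 in the kinase list. The cause was not tested. CNN1 could be fitted only without a filter (log2 fold change 0.97, SE 1.79, adjusted p = 0.836), on 3 counts in all.

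Samples with the same replicate number had deviations from their group means that correlated at 0.077, 0.129 and 0.102 over 9795 genes. Other pairs correlated at -0.0846 to -0.017. Each sample thus correlated best with its own number, a hint from the data. Deviations cancel within a group, so the negative values are not separate evidence. The study's methods name independent assays in each group and do not say whether equal numbers were paired. With the replicate block 2727 genes were called, 8 of them in the serum response factor list in place of 5, and CNN2 stayed uncalled (0.05, adjusted p = 0.108).

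TAGLN, at 93 to 137 counts per sample, had an interval of 99% to 139.5% of the control, and CNN1 and TAGLN3 had too few counts for a comparison. A single siRNA and a single time point were sequenced, and protein levels were not analysed here.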
